A study of Homo sapiens with 8 samples.

Results

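NKG2D ligands are cell-surface proteins that mark stressed, infected or transformed cells for natural killer cells and for some T cells, which carry the receptor NKG2D. The 5 ligand genes followed here were MICA, MICB, ULBP1, ULBP2 and ULBP3, out of 34809 gene names on the array. They were chosen by name, with the levels in the 4 shRNA vectors already known, so that every difference in the ligands between vectors is given as a value with its spread and without a test. MICA and MICB are transmembrane relatives of MHC class I chains that carry no peptide, and ULBP1 to ULBP3 are related proteins that are held in the membrane by a lipid anchor. Their transcription is known to respond to DNA damage, heat shock and proliferation signals, and tumour cells can shed the proteins from their surface with metalloproteinases.

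HuCCT1 is a human intrahepatic cholangiocarcinoma cell line, and the study asked what depends on BEX2 (brain expressed X-linked 2) in it. Total RNA of HuCCT1 cells with an shRNA-expressing vector was measured on 8 one-colour Agilent arrays, 2 for each vector. The control cells carried shControl or shNontarget, and the BEX2-knockdown cells carried shBEX2-1 or shBEX2-2, so that all 8 samples held a hairpin and none was left without a vector. The target sequences that the study prints for its 2 BEX2 hairpins are nearly reverse complements of each other and cover the same site. Agreement between the sublines therefore does not stand for 2 separate target sites. The study describes a hairpin against luciferase as its control and does not say which control vector that was, and whether a subline was a clone or a pool of cells was not given in the sources used here. Whether a vector's 2 arrays stand for separate cultures is not said, so that standard errors and p-values measure the spread between these arrays, which may be technical.

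Levels are normalized log2 intensities, the log2 of the deposited processed intensity minus the 75th percentile of its array, so that 0 stands for the 75th percentile of that array and a level can be compared between arrays but not between probes. Control arrays had a 75th percentile of 667 to 838, and BEX2-knockdown arrays one of 441 to 631. Control arrays also sat in row 1 of the slide and BEX2-knockdown arrays in row 2, so that slide position and group cannot be told apart. The share of spots that the scanner software marked as well above background was 59.8% to 64.6%. BEX2, the targeted gene, had levels of -3.36 and -3.91 with shControl, -2.70 and -3.77 with shNontarget, -5.21 and -5.54 with shBEX2-1 and -4.92 and -4.60 with shBEX2-2. All BEX2-knockdown arrays were below all control arrays, the difference was -1.63 (SE 0.32, limma adjusted p = 0.0116), and the probe was not well above background on either shBEX2-1 array. With the normexp background correction the BEX2 difference was -0.45 (adjusted p = 0.0796), and against the shNontarget arrays alone its adjusted p was 0.0787. The biliary markers KRT7, KRT19, EPCAM, SOX9 and CDH1 were well above background on all 8 arrays, and of the 3 hepatocyte markers ALB and TTR were so on none and APOA1 on 6 (3 control and 3 BEX2-knockdown arrays).

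The 5 ligand genes were read by 8 probes of 60 bases on 13 spots. MICA had 2 probes, MICB 2, ULBP1 2, ULBP2 1 and ULBP3 1. By the scanner files, which use human build hg19, all mapped ligand probes lie on chromosome 6. One MICA probe is at 31382847 to 31382906, and the other MICA probe has no position in the files. The MICB probes are at 31478833 to 31478892 and at 31475185 to 31475244, the ULBP2 probe is at 150267714 to 150267773, the ULBP1 probes are at 150294682 to 150294741 and 150292927 to 150292986, and the ULBP3 probe is on the minus strand at 150386727 to 150386786. An exon annotation of that build was not used here. The probes below are shown because the readings of MICB, ULBP2 and ULBP3 turn on what they match: the dimmer of the MICB probes, the ULBP2 probe, for which the array design also names the transcripts of RAET1L and RAET1G, and the only ULBP3 probe. They are written in lower case because no base in them is singled out.
MICB A_24_P169688: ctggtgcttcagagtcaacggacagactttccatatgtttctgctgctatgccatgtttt
ULBP2 A_23_P145485: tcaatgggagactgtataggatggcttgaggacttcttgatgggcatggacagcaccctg
ULBP3 A_23_P134100: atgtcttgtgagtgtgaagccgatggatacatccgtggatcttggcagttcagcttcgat
Neither RAET1G nor RAET1L, which are further ligands of the same family, has a gene name of its own on the array, so that the ULBP2 signal cannot be told apart from theirs.

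The 250 bases before the start of MICA and of MICB are shown next. Both genes had higher normalized levels in BEX2-knockdown cells, and they lie near each other in the MHC region. A heat shock element is described in these promoters, and the letters of its core occur in both. Whether the match found here is the described element was not checked. The sequences are from RefSeq on GRCh38.p14 and run 5′ to 3′ toward the start site, at chr6:31403345-31403594 for MICA and chr6:31497895-31498144 for MICB, both on the plus strand. Capitals mark, from left to right, the heat shock element core GAANNTTC, the GC box GGGCGG and the CCAAT box, each searched on both strands. The GC box is written on its other strand as CCGCCC and the CCAAT box as ATTGG, and none of the matches overlap.
MICA: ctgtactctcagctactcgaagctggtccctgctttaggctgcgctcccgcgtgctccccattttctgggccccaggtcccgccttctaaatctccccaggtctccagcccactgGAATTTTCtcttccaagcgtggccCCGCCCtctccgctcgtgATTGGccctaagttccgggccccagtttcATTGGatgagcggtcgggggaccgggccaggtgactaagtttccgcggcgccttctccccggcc
MICB: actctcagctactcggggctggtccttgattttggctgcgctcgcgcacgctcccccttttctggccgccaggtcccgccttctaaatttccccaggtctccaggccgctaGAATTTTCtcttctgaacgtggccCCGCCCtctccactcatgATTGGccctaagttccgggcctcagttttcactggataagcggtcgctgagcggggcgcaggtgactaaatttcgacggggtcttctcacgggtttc
Aligned end to end, the MICA and MICB sequences were identical at 210 of 254 alignment columns (82.7%), whereas the ULBP promoters shared between 43.8% and 49.6% with them and with each other. The identity that unrelated promoters reach in such an alignment was not computed, so that no shared sequence is read from the ULBP values. The heat shock element core began 135 bases before the start of MICA and 139 bases before that of MICB, and it occurred in neither ULBP1, ULBP2 nor ULBP3. Of 35116 promoters of the same length in the table, 5.78% held that core. GC boxes numbered 1 in MICA, 1 in MICB, 2 in ULBP1, 1 in ULBP2 and 6 in ULBP3, and 42.64% of all promoters held at least 1. CCAAT boxes numbered 2 in MICA, 1 in MICB and 1 in ULBP2 against none in ULBP1 and ULBP3, with 32.01% of all promoters holding 1 or more. The TATA box TATAAA was in none of the 5 and in 10.72% of all promoters. These matches describe letters in the window and say nothing of binding in these cells.

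Of the 3 ligands measured on all 8 arrays, MICB had the widest separation between BEX2-knockdown and control cells. On its brighter probe the level was 0.97 and 0.80 with shControl, 1.04 and 0.66 with shNontarget, 2.46 and 2.38 with shBEX2-1 and 2.51 and 2.50 with shBEX2-2. The lowest BEX2-knockdown array was 1.34 above the highest control array. The mean was 2.46 ± 0.06 (SD, n = 4) in BEX2-knockdown cells and 0.87 ± 0.17 (SD, n = 4) in control cells, a difference of 1.60 on the log2 scale (SE 0.12), or 3.02-fold. That difference was 10.8 times the SD between arrays of the same vector. In order of level the vectors were shNontarget, shControl, shBEX2-1 and shBEX2-2, and neither the control vectors (-0.03, SE 0.17) nor the sublines (-0.08 for shBEX2-1 minus shBEX2-2, SE 0.17) differed beyond their spread.

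The second MICB probe gave the same direction with a smaller difference. Its level was -1.02 and -1.03 with shControl, -1.03 and -0.98 with shNontarget, -0.40 and -0.38 with shBEX2-1 and -0.25 and -0.12 with shBEX2-2. Again no BEX2-knockdown array reached down to the control arrays, and the 4 control arrays lay close together, between -1.03 and -0.98. The difference was 0.73 (SE 0.12), or 1.65-fold, so that the 2 probes of MICB differed by 0.87 in the size of the change. Of 3857 genes with 2 or more kept probes, 8.71% had probes that far apart or farther, and the median range was 0.31. Taken as the mean of both probes, the MICB difference was 1.16. The unscaled intensity of this probe was between 334 and 396 on the shBEX2-1 arrays and between 338 and 410 on the control arrays, so that the difference in that subline appeared with the scaling to the 75th percentile. The brighter probe did not need it, with unscaled intensities of 2433 and 2683 for shBEX2-1, 3528 and 3570 for shBEX2-2 and 1059 to 1538 on the control arrays.

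**Figure D1:**
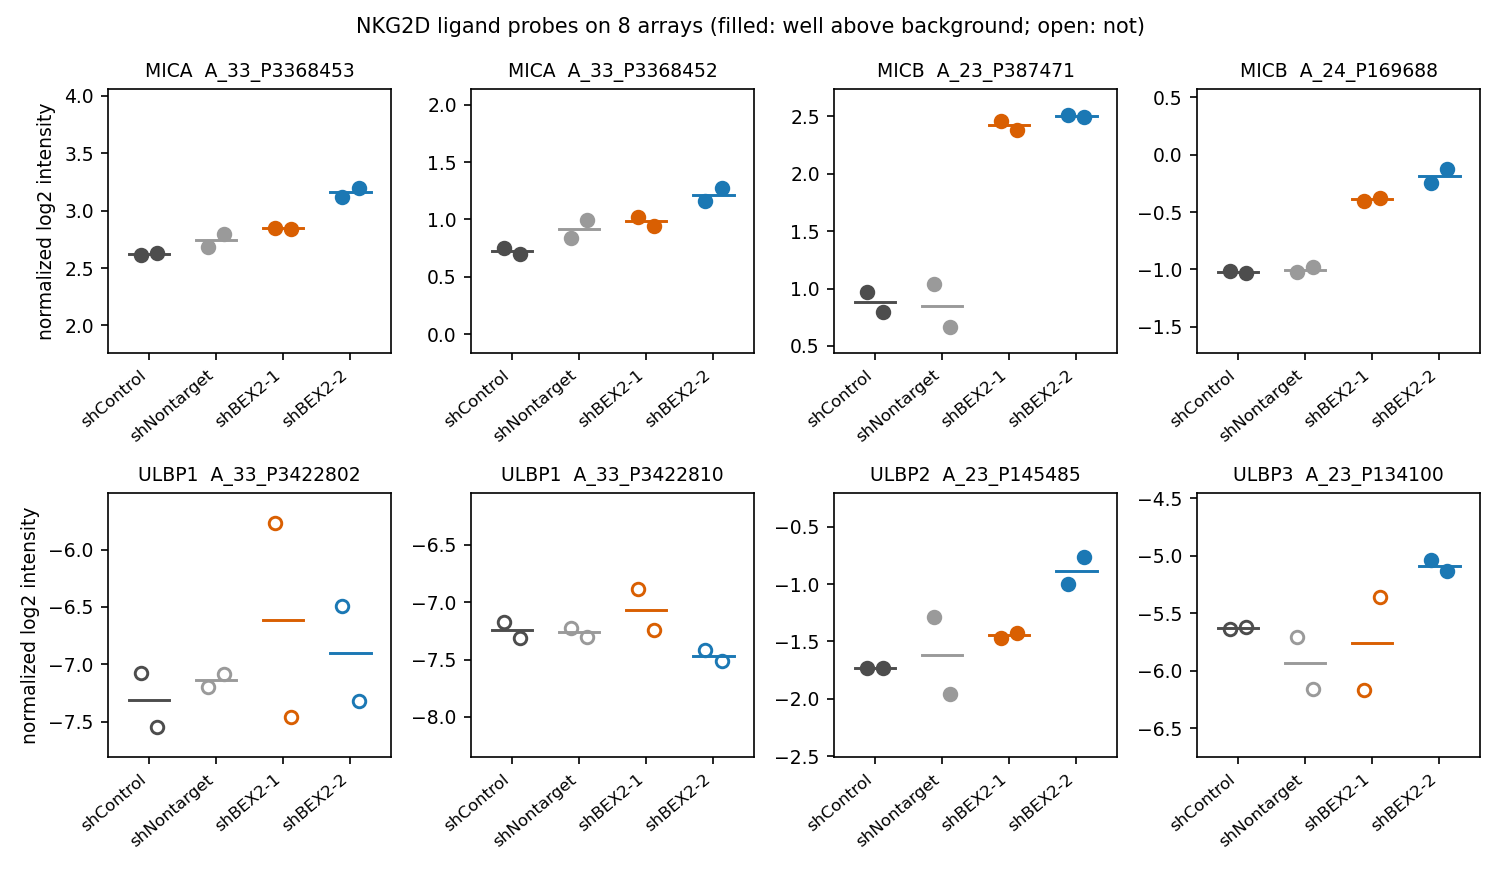
Normalized log2 intensity (y axis) of the 8 NKG2D ligand probes by vector (x axis), with a point for each array, a line at the mean of the 2 arrays, and open points where no spot of the probe was well above background. Every panel spans the same height, and the MICB panels show all BEX2-knockdown points above all control points, while both ULBP1 panels hold open points only.

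MICA, the closest relative of MICB, had a higher normalized level in BEX2-knockdown cells by much less. On the brighter MICA probe the level was 2.62 and 2.63 with shControl, 2.68 and 2.80 with shNontarget, 2.85 and 2.84 with shBEX2-1 and 3.12 and 3.20 with shBEX2-2. All BEX2-knockdown arrays were above all control arrays, by a margin of 0.04 between the nearest of them. The means were 3.004 ± 0.18 (SD, n = 4) and 2.68 ± 0.08 (SD, n = 4), a difference of 0.32 (SE 0.13), or 1.25-fold. The order of the vectors was shControl, shNontarget, shBEX2-1 and shBEX2-2. shNontarget and shBEX2-1, neighbours in that order, were nearer to each other than 1 SD between arrays of a vector at their closest arrays. The second MICA probe had the same order of vectors, from 0.70 and 0.75 with shControl to 1.16 and 1.27 with shBEX2-2. There the shBEX2-1 arrays, at 1.03 and 0.94, overlapped the shNontarget arrays, at 0.84 and 1.00, and the difference between groups was 0.28 (SE 0.13). The 2 MICA probes thus differed by 0.04 in the size of the change, a range that 92.3% of genes with 2 or more kept probes reached or exceeded.

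By subline, the MICA difference from control was 0.17 (SE 0.12) in shBEX2-1 cells and 0.48 (SE 0.12) in shBEX2-2 cells on the brighter probe. For comparison, shNontarget exceeded shControl by 0.12 (SE 0.14) on that probe and by 0.19 (SE 0.14) on the other. Without scaling, the intensity of the brighter MICA probe was 3186 and 3697 on the shBEX2-1 arrays, below the control range of 4486 to 5187, and 5370 and 5814 on the shBEX2-2 arrays, above it. The direction of MICA in shBEX2-1 cells was therefore set by the scaling between arrays, and the difference of 0.17 there was 0.088 with quantile normalization, 0.092 with normexp and 0.11 with shNontarget as the only control. On the other MICA probe the unscaled intensity was 898 and 988 with shBEX2-1, 1379 and 1528 with shBEX2-2 and 1226 to 1359 on the control arrays. Before scaling, the BEX2-knockdown arrays thus lay on both sides of the control range on either probe. The MICA difference between BEX2-knockdown and control cells also depends on the scaling.

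ULBP2, which is anchored by lipid, separated the vectors less cleanly. The level of its probe was -1.74 and -1.73 with shControl, -1.29 and -1.95 with shNontarget, -1.47 and -1.43 with shBEX2-1 and -1.004 and -0.764 with shBEX2-2. The shBEX2-2 arrays were above all control arrays, whereas the shBEX2-1 arrays lay inside the range of the shNontarget arrays. The mean was -1.17 ± 0.34 (SD, n = 4) in BEX2-knockdown cells and -1.68 ± 0.28 (SD, n = 4) in control cells, a difference of 0.51 (SE 0.21), or 1.43-fold, which is 2.05 times the SD between arrays of a vector. It was 0.23 (SE 0.21) in shBEX2-1 cells and 0.79 (SE 0.21) in shBEX2-2 cells. The shBEX2-1 difference was 0.40 without shNontarget replicate 1 and 0.063 without shNontarget replicate 2. Without scaling, the ULBP2 intensity was 159 and 191 on the shBEX2-1 arrays and 172 to 306 on the control arrays. The direction of ULBP2 in shBEX2-1 cells was therefore set by the scaling between arrays. On the shBEX2-2 arrays the unscaled intensity was 308 and 372, the lower of them close to the highest control array. In order of level the vectors were shControl, shNontarget, shBEX2-1 and shBEX2-2, and of the neighbours only shBEX2-1 and shBEX2-2 held arrays that did not overlap.

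ULBP1 and ULBP3 were at or near the background. Neither ULBP1 probe passed as well above background on an array, with unscaled intensities between 2.92 and 8.81, so that no fold is given. ULBP3 had levels of -5.64 and -5.62 with shControl, -5.70 and -6.16 with shNontarget, -6.17 and -5.36 with shBEX2-1 and -5.04 and -5.13 with shBEX2-2. Its probe was well above background on both shBEX2-2 arrays and on no other array. In shBEX2-2 cells ULBP3 was 1.62-fold higher than in control cells, and 1.45-fold higher than in shBEX2-1 cells. For these folds a dim array entered with the ULBP3 level itself or with the lowest level of any probe well above background there, whichever was higher. On the control arrays that was always the ULBP3 level. The 1.62-fold is therefore the measured difference and not a lower bound, and it leaves no room for measurement error. Unscaled intensities of 18.0 and 18.8 on the shBEX2-2 arrays were close to 17.1 on an shControl array.

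**Figure D2:**
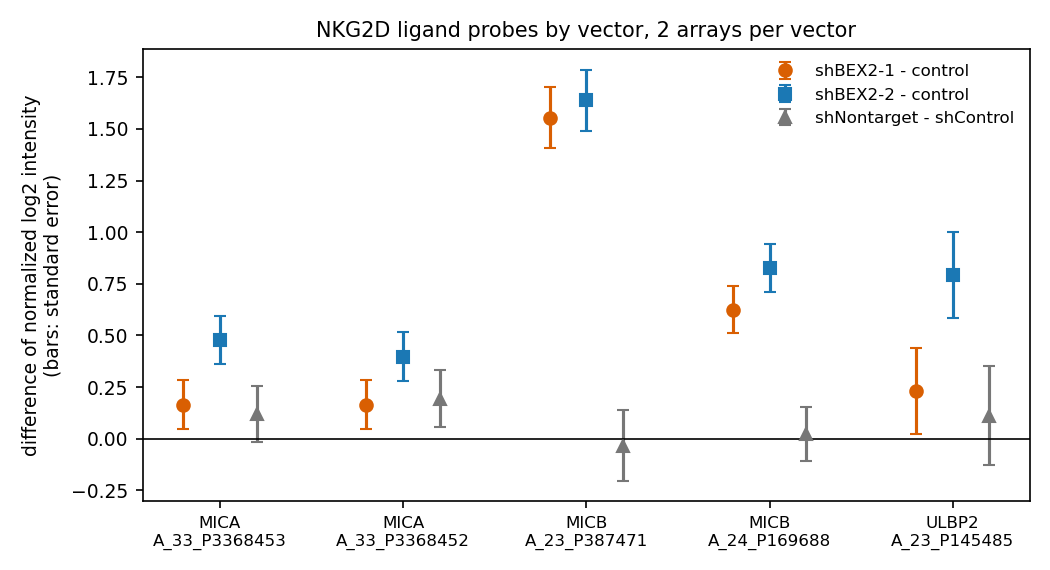
Difference of normalized log2 intensity (y axis) for the 5 NKG2D ligand probes that passed the filter on dim probes, as shBEX2-1 minus control (circles), shBEX2-2 minus control (squares) and shNontarget minus shControl (triangles), with standard errors from the model with 4 vectors. Both sublines lie between 0.62 and 1.64 for MICB, and shBEX2-2 lies above shBEX2-1 for every probe shown.

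Of the 5 ligand genes, 3 passed the filter on dim probes, which asked for 4 or more arrays with a clear signal, and ULBP1 and ULBP3 did not. In the fit of BEX2-knockdown against control cells over 20464 genes, 12.9% of genes had an adjusted p under 0.05 in either direction and 6.68% were higher. All 4 BEX2-knockdown arrays were above all 4 control arrays for MICA and MICB, against 11.4% of all genes. With shBEX2-1 alone, 6.97% of genes were called, and both arrays exceeded all control arrays for 2 of the 3 ligand genes against 16.9% of all genes. With shBEX2-2 alone, 9.66% of genes were called, and the corresponding counts were 3 of 3 against 17.6%. Both sublines were set against the same control arrays. Between the sublines, both shBEX2-2 arrays exceeded both shBEX2-1 arrays for 3 of 3 ligand genes and for 26.7% of all genes, and 0.00977% of genes were called (2 genes). Between shNontarget and shControl 0% of genes were called by limma, with 1567 genes at an unadjusted p under 0.05. Since these contrasts are the ones in which the ligands were chosen, nothing is read from their counts.

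Genes that act with the ligands or on their expression were listed by role and tested in the same fit. The list held 32 genes by role, of which 30 were on the array and 29 were tested. In BEX2-knockdown against control cells 3 were higher, 4 were lower and 22 were not called, beside 12.9% of all genes called. The median difference of the listed genes was 0.01 against 0.03 over all genes, and with 1 array left out between 3 and 10 of them were called. RAET1E, the remaining ligand with a gene name of its own on the array, had 2 probes there. On its brightest kept probe the level was -4.56 in BEX2-knockdown and -4.77 in control cells (0.21, SE 0.22, limma adjusted p = 0.590). That probe was well above background on 7 arrays (3 control and 4 BEX2-knockdown arrays). The receptor gene KLRK1, which encodes NKG2D and belongs to lymphocytes, stayed at background on all 8 arrays. HCST, which encodes the signalling adaptor DAP10 of that receptor, was well above background on all 8 arrays with a difference of -0.64 (SE 0.22, adjusted p = 0.0884). Of the 7 natural killer and T cell markers listed, HCST was the only one well above background on all arrays. CD3D was so on 6 arrays, KLRD1 and GNLY on 1 each, and KLRK1, NCR1 and NKG7 on none. The summed level of those 7 markers, as log2, ran from -2.25 to -1.35 on the control arrays and from -2.58 to -2.05 on the BEX2-knockdown arrays. HCST had the highest level of the 7 on every array. The leukocyte marker PTPRC was well above background on 7 arrays. Of the fibroblast markers COL1A1 was so on 8, PDGFRB on 1 and COL3A1 on none.

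Genes of ligand shedding and release showed no called change. The metalloproteinases ADAM9, ADAM10, ADAM17 and MMP14, which can cut ligands from the cell surface, and PDIA6, a disulfide isomerase reported to aid the cutting of MICA, differed by between -0.08 and 0.44, and 0 of 5 were called. Of the heat shock group, HSF1, the factor that binds heat shock elements, and the chaperone genes HSPA1A and HSPA1B differed by between -0.02 and 0.53, and 0 of 3 were called. RBM4 and DICER1, which act on RNA processing, differed by between -0.19 and 0.01, with 0 of 2 called. In the same fit 12.9% of all genes were called, so that nothing is read from counts of 0 among so few genes.

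Calls fell in the DNA damage, stress and transcription factor groups. E2F1, a transcription factor of cell cycle genes, was higher with a difference of 2.24 (SE 0.24, adjusted p = 0.00125). Its control arrays had levels from -1.46 to -0.83 and its BEX2-knockdown arrays from 0.70 to 1.51. CHEK1, a checkpoint kinase that acts downstream of ATR, was higher by 1.22 (SE 0.21, adjusted p = 0.00687), from a mean of -0.86 ± 0.29 (SD, n = 4) to 0.36 ± 0.35 (SD, n = 4). CHEK2, a checkpoint kinase downstream of ATM, was higher by 0.76 (SE 0.22, adjusted p = 0.0491). The CHEK2 difference was 1.17 as the mean of its 2 probes and 0.449 with shNontarget as the only control. The kinases ATM and ATR themselves were not called, at 0.45 and -0.03.

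Of 3 genes of the integrated and endoplasmic reticulum stress responses, 2 fell, beside 12.9% of all genes called in either direction. DDIT3, which encodes CHOP and is induced when the unfolded protein response is strong, fell by 1.68 on the log2 scale (SE 0.17, adjusted p = 0.00111), and its BEX2-knockdown arrays, from -1.05 to -0.54, were all below its control arrays, from 0.61 to 1.20. ATF4, the transcription factor of the integrated stress response that acts on DDIT3, fell by 0.69 (SE 0.19, adjusted p = 0.0470), and XBP1 had a difference of -0.60 that was not called (adjusted p = 0.0524). MYC fell by 0.55 (SE 0.12, adjusted p = 0.0171), while SP1, NFKB1, RELA, JUN, STAT3, HDAC3 and EP300 were not called, with differences between -0.67 and 0.30.

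E2F1 and DDIT3 were called under all 15 alternatives of processing, control vector and arrays, and CHEK1 under 14, with the exception of shNontarget as the only control (adjusted p = 0.0989). ATF4 was called under 6 of them and CHEK2 under 7, and both lost the call without either shControl array or any 1 of the BEX2-knockdown arrays, with adjusted p up to 0.1499 and 0.137. With shNontarget as the only control the adjusted p was 0.175 for ATF4 and 0.345 for CHEK2, and ATF4 also lost the call with the mean of a gene's probes. With the replicate number as a block the adjusted p was 0.0531 for ATF4 and 0.0610 for CHEK2. MYC lost the call without either shControl array, either shBEX2-2 array or the shBEX2-1 replicate 1 array (adjusted p up to 0.0612) and with shNontarget as the only control (adjusted p = 0.144), and was called under 9 of the 15. By subline, 4 of the 29 genes were called in shBEX2-1 cells, beside 6.97% of all genes, E2F1 and CHEK1 as higher and DDIT3 and MYC as lower. In shBEX2-2 cells 7 were called, beside 9.66% of all genes, with E2F1, CHEK1, HSPA1A and HSPA1B higher and DDIT3, ATF4 and HCST lower. HSPA1A and HSPA1B are named after their values were seen. They encode nearly the same heat shock protein and may share signal between their probes. In shBEX2-2 cells they differed from control by 0.63 (SE 0.14, adjusted p = 0.0389) and 0.74 (SE 0.11, adjusted p = 0.0131), and in shBEX2-1 cells by -0.07 and 0.32, neither called. The difference between the sublines was not called for either gene (adjusted p = 0.248 and 0.452). HCST fell by 0.95 in shBEX2-2 cells (SE 0.19, adjusted p = 0.0312), with -0.33 in shBEX2-1 cells, not called, and its difference between the sublines was not called (adjusted p = 0.578). With the replicate number as a block the counts were 2 in shBEX2-1 cells and 6 in shBEX2-2 cells. With 1 array left out the counts ran from 0 to 18 in shBEX2-1 cells and from 0 to 21 in shBEX2-2 cells, at 0 in the former without either shControl array or either shBEX2-1 array and in the latter without either shBEX2-2 array.

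**Figure D3:**
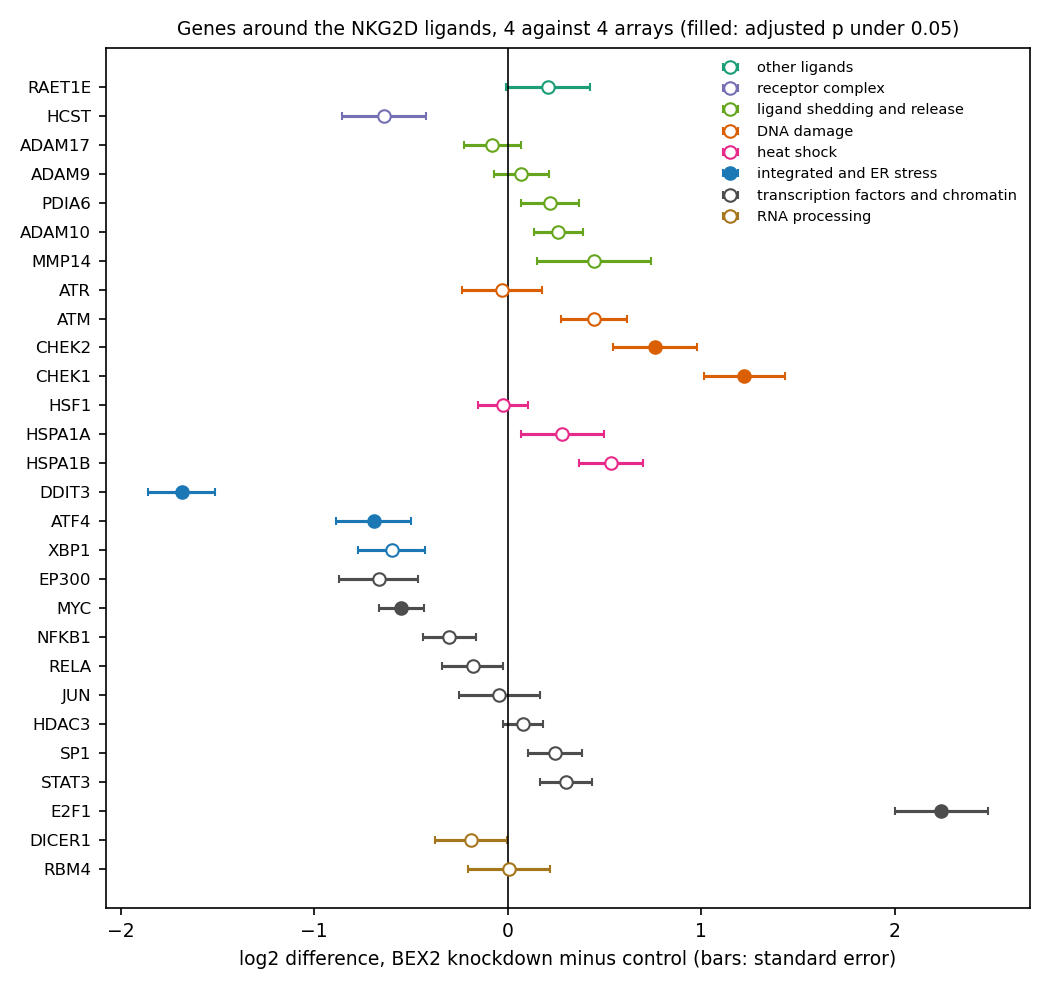
Log2 difference (x axis, BEX2 knockdown minus control, with standard error) of the tested genes around the NKG2D ligands whose values are reported (y axis), coloured by role and filled where the limma adjusted p was under 0.05. The filled points are E2F1, CHEK1 and CHEK2 to the right of 0 and DDIT3, ATF4 and MYC to the left.

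Of 7 tested neighbours of MICA and MICB, taken by their order on chromosome 6 in the RefSeq table, 1 was called. In the same fit 12.9% of all genes were called. The called neighbour is given first. It was HCG27, an HLA complex RNA gene before MICA, with a level of -6.19 in control and -4.03 in BEX2-knockdown cells (2.17, SE 0.61, adjusted p = 0.0468), and that call was lost without any 1 of 7 of the arrays, all but shNontarget replicate 2 (adjusted p up to 0.124), and with shNontarget as the only control (adjusted p = 0.251). The HCG27 control level was below that of ULBP3 (-5.78), whose probe was well above background on no control array. Levels of different probes cannot be compared, so this does not place HCG27 at background. Whether the HCG27 probe was well above background on the control arrays is not given here. With normexp the HCG27 difference was 0.69 (adjusted p = 0.0163). The other 6 had differences between -0.24 and 0.21 and were not called. Of 6 tested neighbours of the ULBP genes, LRP11 was higher by 0.67 (SE 0.16, adjusted p = 0.0248) and MTHFD1L, a mitochondrial folate enzyme, fell by 1.33 (SE 0.12, adjusted p = 0.000723). The remaining ULBP neighbours, RAET1E among them, had differences between -0.04 and 0.71 and were not called. LRP11 lost its call without either shControl array, either shBEX2-1 array or the shBEX2-2 replicate 1 array (adjusted p up to 0.0815) and with shNontarget as the only control (adjusted p = 0.102), and MTHFD1L kept it under 15 of 15 alternatives.

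Over the 8 arrays, which share 4 vectors and 1 slide, the tested genes whose levels ran most closely with those of a ligand were ranked by Pearson's r as a description. For MICB these were ASB9 (r = 0.998), POLD3 (r = 0.998) and C11orf24 (r = 0.997), all higher in BEX2-knockdown cells, by 1.42, 0.95 and 1.16. POLD3 is a subunit of DNA polymerase delta. For MICA they were RFX5 (r = 0.994), DISP2 (r = 0.992) and PRTFDC1 (r = 0.986), and RFX5 encodes a factor that binds promoters of MHC genes. For ULBP2 they were PSMC2 (r = 0.989), a proteasome subunit, PPP5C (r = 0.989) and CLPTM1L (r = 0.987). Each is the highest of a ranking of 20464 genes over 8 points in 2 groups, and none was tested.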

How the data were processed

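Total RNA of HuCCT1 cells was labelled with Cy3 by the authors and read on Agilent one-colour arrays with Feature Extraction 10.7.3.1, as the submitters' processing notes name it. The processed intensity in the deposited files had its background subtracted there, and dim spots hold a surrogate. No scaling between arrays had been done. A series-wide table held the same values within 0.497%. Of 58717 non-control spots per array, between 3 and 15 were non-uniformity outliers and were set missing.

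The ligands and gene lists were chosen with earlier results of these data known. Intensities were taken to log2, the 75th percentile of each array was subtracted, spots of a probe were averaged, and a probe was kept if at least 0.5 of its spots were well above background on at least 4 arrays. The brightest kept probe stood for a gene. limma 3.58.1 in R 4.3.3 (lmFit and eBayes with a trend, statmod 1.5.0) compared 4 BEX2-knockdown with 4 control arrays, and a model with 4 vectors gave the other contrasts. A gene was called where its adjusted p (Benjamini-Hochberg, over 20464 genes) was under 0.05. The scripts were tested on simulated data. The study's rank product was not used, since its null permutes genes within arrays, and the methods' t-test is an alternative. Each replicate number goes with its own day in the file names, so that the numbers were taken to pair arrays. The replicate differences of the vectors correlated over genes at between -0.06 and 0.26.

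Named were every ligand, BEX2, the other ligand and receptor genes, each listed gene and tested neighbour that was called (3 neighbours on either side of a ligand), and the 3 genes most like each ligand. The values of 1 listed gene are not reported here, though the counts over the list include it. The number of arrays limits the precision. Python 3.11.15, pandas 2.3.3, numpy 2.4.6 and matplotlib 3.10.9 read files and drew figures. Promoters came from a RefSeq table on GRCh38.p14.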

Additional observations from a re-analysis of the deposited data

Results flagged for a closer look

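In groups of 4 arrays, a value far from the other 3 was looked for by Dixon's ratio, the gap to the nearest value over the whole range, among 68 groups. Chance alone marks about 1 in 20 such groups. No ligand was marked. JUN on the control arrays had a ratio of 0.879, with a level of 0.91 on shNontarget replicate 2 against 0.10 to 0.20 on the others. MYC on the BEX2-knockdown arrays had a ratio of 0.930, with 3.37 on shBEX2-1 replicate 1 against 3.62 to 3.64 on the others.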

How the results depend on the processing

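No ligand difference between BEX2-knockdown and control cells changed sign under any of 72 alternative values for 5 probes, and 61 of them moved by less than the SD between arrays of a vector. Every alternative kept a scaling between arrays. The unchanged signs therefore do not test that step, which set the direction of MICA and ULBP2 in shBEX2-1 cells. The difference of the brighter MICA probe was 0.25 with quantile normalization, 0.38 with shControl as the only control, 0.26 with shNontarget as the only control and 0.26 to 0.37 with 1 array left out. That of the other MICA probe was 0.38 and 0.18 with shControl and shNontarget alone, and 0.22 to 0.34 with 1 array left out. For MICB it was 1.16 as the mean of both probes, 1.53 to 1.65 for the brighter probe with 1 array left out, and for the second probe 0.67 with normexp and 0.67 to 0.76 with 1 array left out. ULBP2 ran from 0.38 to 0.64. Counts of called genes depended far more on the arrays. Between BEX2-knockdown and control cells they were 6840 with shControl alone, 341 with shNontarget alone, 5423 by the methods' t-test without adjustment and 1245 to 4722 with 1 array left out, and the counts of listed genes were 13, 2, 15 and 3 to 10. In shBEX2-1 cells 2415 genes were called with normexp, 642 with shNontarget alone and 0 to 10821 with 1 array left out, with 2 listed genes without a filter, 2 with shNontarget alone and 0 to 18 with 1 array left out. In shBEX2-2 cells 1266 genes were called with shNontarget alone and 0 to 11151 with 1 array left out, with 4 listed genes without a filter, 3 with shControl alone and 0 to 21 with 1 array left out. Between the sublines 17 genes were called with quantile normalization, 6 with the mean of probes, 0 with normexp, without a filter and with the filter on all 8 arrays, and 0 to 3016 with 1 array left out. Between the control vectors the range with 1 array left out was 0 to 9462. With an array left out, the lone array of its vector is assumed to vary like the others, and the high counts came without either shNontarget array and the low ones without an shControl or BEX2-knockdown array. The cause was not tested. With the replicate number as a block, 2 listed genes were called in shBEX2-1 cells and 0 genes between the sublines, the calls of ATF4 and CHEK2 were lost, and the ligand differences were unchanged, since the design is balanced.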
